A study of Rattus norvegicus with 48 samples.

Results

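The air control lungs compared here were 16 of the 48 lung RNA libraries in the series, 8 taken 7 days and 8 taken 27 days after inhalation of filtered air. They were chosen by their labels: treatment air and time 7 or 27 days, and are numbered here from 1 to 8 within a day in the order of their animal numbers. All came from male Sprague-Dawley rats, an outbred laboratory strain, weighing 200 to 250 g and described as healthy, housed in pairs under a light-dark cycle of 12 hours each. The air animals breathed filtered air by whole-body inhalation for 6 hours a day on 4 days and received no particles. The other animals of the series inhaled 30 mg/m3 fracking sand dust together with 1 mg/m3 diesel exhaust particles on the same schedule, and lungs were taken at days 1, 7 and 27, with 8 animals in each of the 6 groups. A piece of each lung was sequenced after selection of polyadenylated RNA. The labels give no ages, no time of day of sampling and no map of cages. The comparison asks how the lung of an unexposed rat changed over the 20 days between the 2 sampling times.

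The lung of a young rat still grows with the body after its alveoli have formed. Fibroblasts then lay down collagen and elastic fibres, endothelial and epithelial cells lay down the basement membrane they share, and a small share of cells divides. Immune cells also settle in the lung after birth, among them B and T cells in small follicles along the airways, dendritic cells that present antigen on class II molecules, and macrophages in the alveoli. Because a bulk library mixes all cells, fewer cells of a type and less RNA per cell cannot be told apart.

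Summed expected counts ran from 10708667 to 14400317 per library at day 7 (median 11563752) and from 10121458 to 13198852 at day 27 (median 11389094), a difference of -2.56% in the means (exact permutation test, two-sided, p = 0.638). The lung markers of the epithelium were high in all 16 libraries. Surfactant protein C (Sftpc), made by alveolar type 2 cells, was at 7173 to 9079 CPM (median 7255) at day 7 and 8693 to 10394 CPM (median 9226) at day 27, where CPM are counts scaled to library size. Libraries 1 and 4 of day 7 and libraries 3 and 6 of day 27 were closer to each other than any other pair, differing by 1.56 and 1.67 times what counting alone gives, while the other 54 pairs within a day differed by 2.41 times or more. They were tested as separate animals, averaged as 1 sample in each mean with SD, and summed in an alternative. Each day was deposited as its own table, so the day, the table and any batch of processing cannot be told apart, and p-values measure the spread between libraries within a day.

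Of 14225 genes tested with edgeR, 5317 (37.4%) were called at an adjusted p under 0.05, 2647 of them higher at day 27 (18.6%) and 2670 lower (18.8%). Most differences were small, with a median size of 0.28 on the log2 scale among called genes. Larger differences lay mainly on the lower side, where 500 genes (3.51%) fell by at least 1.5-fold and 100 (0.703%) rose by as much. All 8 libraries of day 27 lay above all 8 of day 7 for 346 genes (2.43%) and below them for 374 (2.63%). The median log2 fold change of all genes tested was 0.02. With the close pairs summed, 4065 genes were called, and 4041 of them were among the 5317 with the same direction.

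Direction went with the genomic span of a gene, which is the distance from its first to its last base, introns included. Spans came from RefSeq's rat gene table of assembly GRCr8, a later build than the Rnor_6.0 of the counts, and were found for 12272 of the genes tested (86.3%). Of the genes with the shortest spans (median 4.71 kb), 40.4% were called higher and 3.67% lower. Of those with the longest (median 133 kb), 3.79% were called higher and 45.9% lower. The medians of the log2 fold change over 5 groups of rising span were 0.18, 0.09, 0.02, -0.07 and -0.19.

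The same gradient differed between libraries of 1 day. The log2 level of each gene was centred on its mean over all libraries, and the median of the longest group minus that of the shortest was taken per library. This value ran from -0.02 to 0.21 at day 7 (median 0.17) and from -0.60 to 0.03 at day 27 (median -0.27). At day 1 it ran from -0.28 to 0.07. The mean log2 level of the cytosolic ribosomal protein genes, which are short, ran from 6.21 to 6.38 at day 7 and from 6.40 to 6.87 at day 27, without overlap. The part of RNA quality, library preparation or tissue makeup in this gradient was not tested. Most gene groups below are therefore also given with the span trend of each library removed, in a fit of the 12272 genes in which 1793 were called higher and 1812 lower. Of the 5317 calls, 2702 were called in the same direction in that fit and 10 in the opposite one. When the ribosomal protein level was a covariate instead, 14 genes were called higher and 55 lower. Since that level does not overlap between the days, the covariate and the day are hard to tell apart in that fit.

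**Figure D1:**
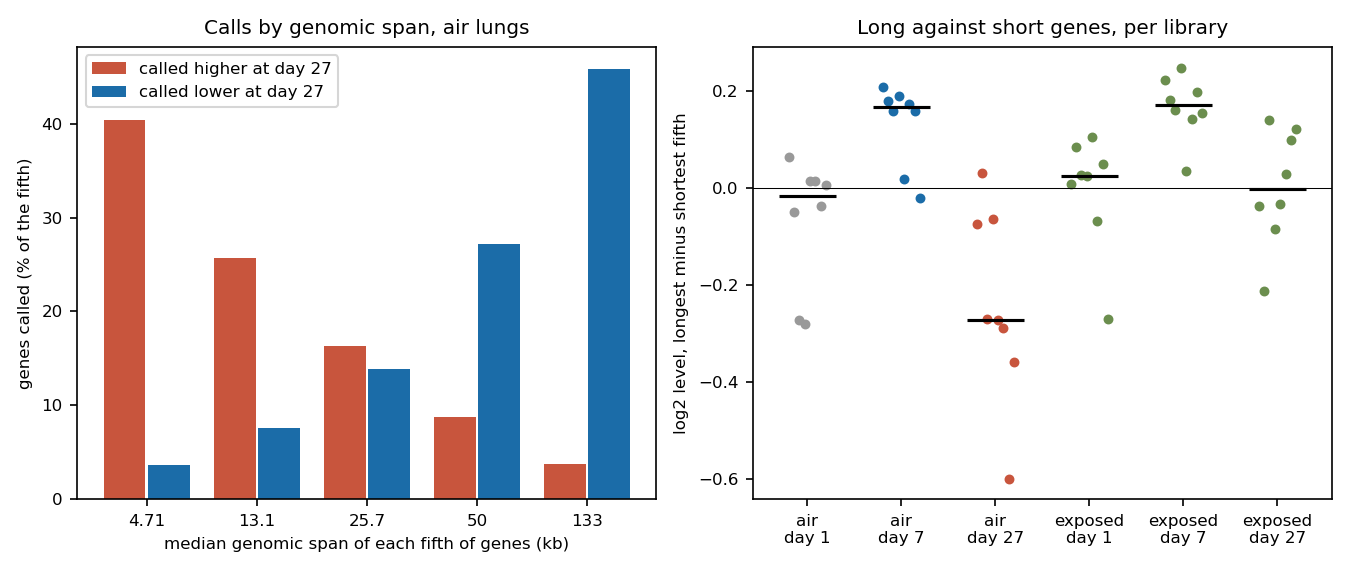
Left, the share of genes called higher (red) or lower (blue) at day 27 in air lungs, by 5 groups of genomic span with the median span of each on the x axis in kb. Right, the median log2 level of the longest-span genes minus that of the shortest-span genes in each library, each gene centred over all 48 libraries, with bars at group medians. Calls higher fall from 40.4% to 3.79% with span, and the highest air day 27 library, at 0.03, lies above the lowest of day 7, at -0.02.

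The smallest p among genes that were lower belonged to Wnt5a, the collagens Col3a1 and Col4a5, the protease Adamts9 and the fibrillin Fbn1. Wnt5a (ENSRNOG00000015618), a secreted Wnt ligand that shapes the distal lung, was at 82.6 to 97.8 CPM (median 87.7) at day 7 and 47.3 to 56.9 CPM (median 55.8) at day 27. No library of one day reached the range of the other, and the means were 88.5 ± 4.63 CPM at day 7 (SD, n = 7) and 54.1 ± 3.48 CPM at day 27 (SD, n = 7). The log2 fold change was -0.71 ± 0.044 SE (adjusted p by edgeR, 1.59e-08). Adamts9, a secreted protease that cuts matrix proteoglycans, was at 74.6 to 97.5 CPM (median 84.6) at day 7 and 37.8 to 51.4 CPM (median 43.4) at day 27, again without overlap, with a log2 fold change of -0.98 ± 0.063 SE (adjusted p by edgeR, 1.81e-08). Day 1 levels, 70.0 to 109 CPM for Wnt5a and 62.8 to 91.8 CPM for Adamts9, lay around those of day 7. Among genes that were higher, the smallest p belonged to 2 ribosomal protein genes described below and to Vwa1, Cbx7 and Pink1. Vwa1, a secreted matrix protein, was at 10.4 to 14.8 CPM (median 13.3) at day 7 and 18.5 to 25.5 CPM (median 22.1) at day 27, without overlap and with a log2 fold change of 0.77 ± 0.079 SE (adjusted p by edgeR, 3.63e-06). Cbx7, a chromatin protein of the Polycomb group, rose by 0.37 and the mitochondrial quality kinase Pink1 by 0.40, each without overlap.

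**Figure D2:**
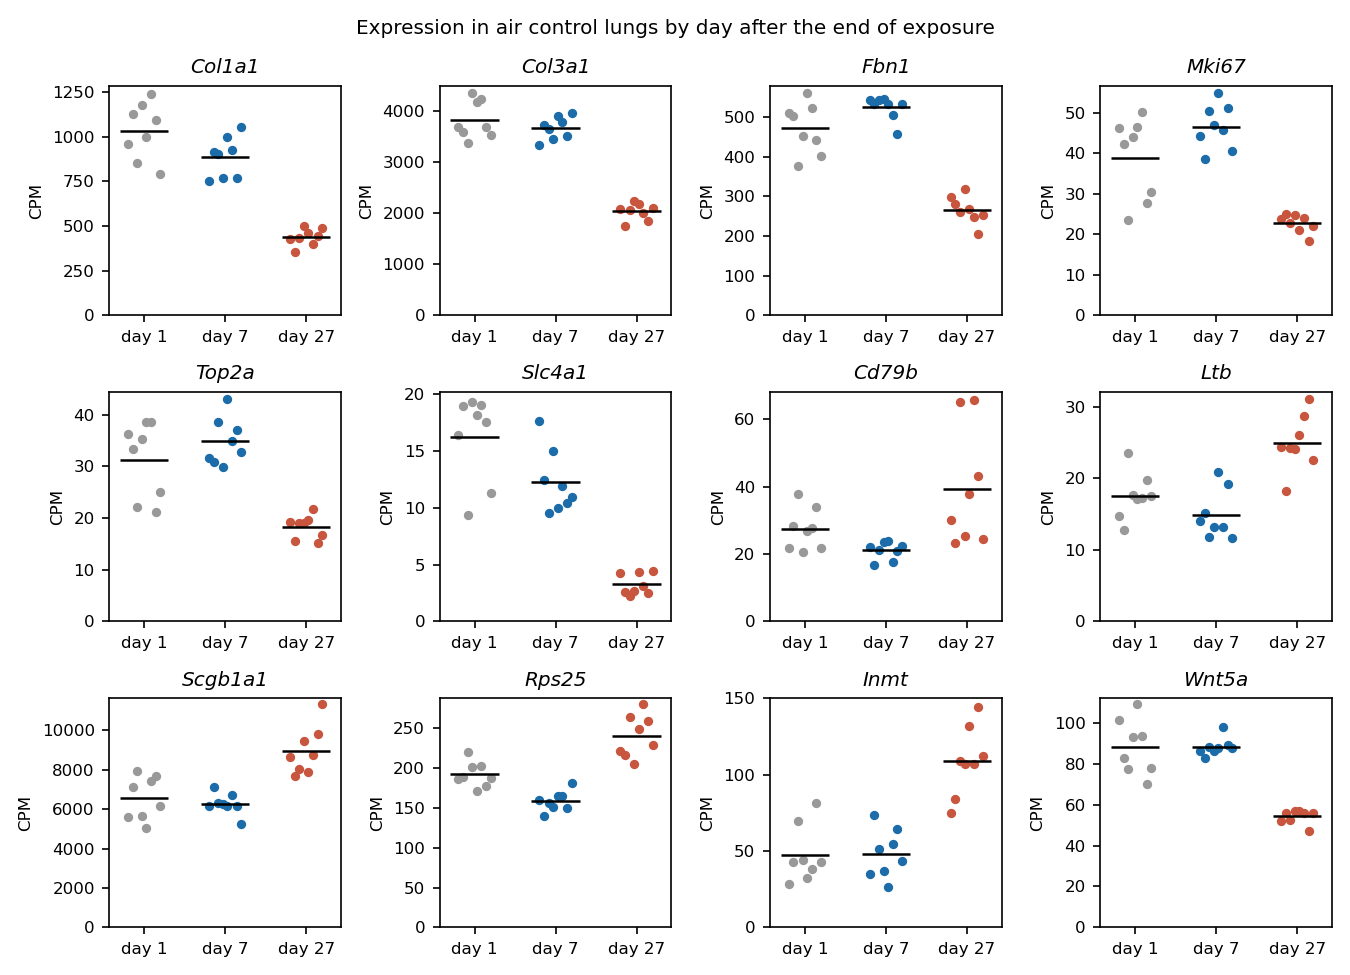
CPM (counts scaled to library size, y axes from 0) of 12 genes in the air lungs of days 1, 7 and 27, 1 point per library, 8 per day, with bars at the mean over all 8 libraries. For Col1a1, Col3a1, Fbn1, Mki67, Top2a, Slc4a1 and Wnt5a every day 27 library lies below every day 7 library, and for Rps25, Inmt and Scgb1a1 every one lies above, while Cd79b and Ltb overlap.

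Fibrillar collagens and elastic fibre genes were lower as a group. Of 20 listed and tested, 18 were called lower and 0 higher, 14 of them without overlap between the days, and the median log2 fold change was -0.49 against 0.02 over all genes. Col3a1 (ENSRNOG00000003357), the chain of type III collagen, was at 3337 to 3947 CPM (median 3687) at day 7 and 1755 to 2230.5 CPM (median 2069) at day 27. The 2 ranges lie far apart, with means of 3699 ± 199 CPM at day 7 (SD, n = 7) and 2031 ± 174 CPM at day 27 (SD, n = 7). Its log2 fold change was -0.85 ± 0.054 SE (adjusted p by edgeR, 1.59e-08). Col1a1, a chain of the type I collagen that makes most of the lung's tensile fibre, was at 754 to 1056 CPM (median 911) at day 7 and 352 to 503 CPM (median 438) at day 27. Every day 27 library was below every day 7 library, with a log2 fold change of -1.02 ± 0.08 SE (adjusted p by edgeR, 1.73e-07). Fbn1 (fibrillin-1), the scaffold of elastic fibres, was at 458 to 544 CPM (median 533) at day 7 and 206 to 318 CPM (median 264.8) at day 27, and its log2 fold change was -0.98 ± 0.068 SE (adjusted p by edgeR, 4.44e-08). Col5a1, a chain that helps start collagen fibrils, fell by 0.84 on the log2 scale (edgeR adjusted p = 1.57e-07).

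The largest fall in the list was that of the matrix glycoprotein Tnc, with a log2 fold change of -1.06 ± 0.11 SE (adjusted p by edgeR, 9.27e-06). Elastin (Eln) was at -0.97 ± 0.10 SE (adjusted p by edgeR, 8.59e-06), and the collagen cross-linking enzyme Loxl2 at -0.98 ± 0.11 SE (adjusted p by edgeR, 1.88e-05). The small proteoglycan decorin (Dcn) and Fbln1 were the 2 members not called, at log2 fold changes of 0.14 and -0.15. Removing the span trend left 17 of the 20 called lower (median -0.54), and the ribosomal protein covariate 11.

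Basement membrane genes were lower too. Of 13 tested, 11 were called lower and 0 higher, with a median of -0.52. Nid1, which links laminin to type IV collagen, was at 408 to 471 CPM (median 449) at day 7 and 216 to 312 CPM (median 266.5) at day 27, without overlap. Its log2 fold change was -0.76 ± 0.056 SE (adjusted p by edgeR, 6.18e-08). Col4a1, a chain of type IV collagen, was at 2009.7 to 2341 CPM (median 2147) at day 7 and 1209 to 1487 CPM (median 1344) at day 27, with a log2 fold change of -0.67 ± 0.049 SE (adjusted p by edgeR, 6.18e-08). Lamc1, the gamma chain in most laminins, fell by 0.59 (edgeR adjusted p = 3.33e-07) and Col4a5 by 0.63 (edgeR adjusted p = 6.18e-08). The laminin beta chains Lamb2 (-0.11) and Lamb3 (0.05) were not called. Again 11 were called lower with the span trend removed (median -0.39), and 5 with the ribosomal protein covariate.

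Families taken by name, chosen after their values were seen, showed how wide this was. Of 33 collagen chains tested, 23 were called lower and 0 higher. Of 13 ADAMTS proteases 11 were called lower, with a median of -0.49, and of 10 laminin chains 7 were. Matrix metalloproteases and their TIMP inhibitors stood apart from these in count, with 5 of 17 called lower, 0 higher and a median of -0.03. Among all genes 18.8% were called lower. With the span trend removed the counts lower were 21, 10, 7 and 4, and 1 collagen chain was called higher.

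Genes of dividing cells formed the next group. Of 26 cell cycle and mitosis genes tested, 20 were called lower and 0 higher, 12 without overlap, with a median of -0.55. Mki67 (ENSRNOG00000028137), the Ki-67 antigen present in cycling cells, was at 38.6 to 54.7 CPM (median 46.2) at day 7 and 18.4 to 25.1 CPM (median 23.3) at day 27. Every day 27 library was lower than every day 7 library, and the means were 46.6 ± 5.85 CPM at day 7 (SD, n = 7) and 22.7 ± 2.34 CPM at day 27 (SD, n = 7). The log2 fold change was -1.04 ± 0.076 SE (adjusted p by edgeR, 6.18e-08). Top2a, the topoisomerase that untangles DNA before mitosis, was at 30.0 to 43.0 CPM (median 33.9) at day 7 and 15.1 to 21.7 CPM (median 19.02) at day 27, without overlap and with a log2 fold change of -0.94 ± 0.087 SE (adjusted p by edgeR, 1.2e-06). Cenpf, a kinetochore protein, was at 13.7 to 19.9 CPM (median 17.2) at day 7 and 6.94 to 10.0 CPM (median 9.26) at day 27, with a log2 fold change of -0.97 ± 0.097 SE (adjusted p by edgeR, 3.11e-06).

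Members that act in mitosis held the lowest values of the list. The mitotic kinesin Kif20a had the lowest log2 fold change of the list, -1.09 ± 0.16 SE (adjusted p by edgeR, 0.000138). The replicative helicase subunits Mcm2 (0.01) and Mcm6 (0.01) and the sliding clamp Pcna (0.12) were not called, while Mcm5 fell by 0.30 (edgeR adjusted p = 0.00643). The remaining members not called were the kinases Aurkb (-0.96) and Aurka (-0.01) and the survivin gene Birc5 (-0.42). No test of the difference between the 2 sets was run. Other mitotic genes outside the list were among the largest falls of all genes, namely the motor Kif14 (-1.69 ± 0.23 SE, adjusted p by edgeR 7.41e-05), the kinase Nek2 (-1.54 ± 0.23 SE, adjusted p by edgeR 0.000146), the ring protein Anln (-1.49 ± 0.20 SE, adjusted p by edgeR 5.92e-05) and Fam64a (-1.64 ± 0.32 SE, adjusted p by edgeR 0.00103). In the fit without the span trend 21 of the 26 were called lower, with a median of -0.64, and with the ribosomal protein covariate 3 were.

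Promoters of mitotic genes often carry CCAAT boxes, bound by the factor NF-Y, and a CHR element, TTTGAA, through which cell cycle repressor complexes act. The 2 motifs were chosen after the values were seen. In RefSeq's promoter table of GRCr8, 20 of the 26 genes had a promoter, and in the 250 bases before the start CCAAT occurred on either strand in 15 of 20 (75%) against 34.3% of all 27457 promoters. TTTGAA occurred in 7 of 20 (35%) against 16%, and CCAAT in 2 of 12 fibrillar collagen and elastic fibre promoters (16.7%). The promoters of Top2a and Mki67 hold both motifs and are shown as examples, and those of Cdk1, Birc5, Prc1 and Cdc20 hold both as well. The sequences are written 5′ to 3′ along the gene's strand and end at the base before the start. Capitals mark CCAAT or its reverse complement ATTGG, and TTTGAA or its reverse complement TTCAAA. In Mki67 the last TTTGAA and the last ATTGG overlap. A match is a description of the letters only.
Top2a, chr10:84473094-84473343, minus strand: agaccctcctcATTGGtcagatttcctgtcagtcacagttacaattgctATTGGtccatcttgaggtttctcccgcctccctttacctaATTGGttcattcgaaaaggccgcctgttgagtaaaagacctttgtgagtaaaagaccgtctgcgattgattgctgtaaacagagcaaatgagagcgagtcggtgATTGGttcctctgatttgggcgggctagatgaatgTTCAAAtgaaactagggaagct
Mki67, chr1:199952594-199952843, minus strand: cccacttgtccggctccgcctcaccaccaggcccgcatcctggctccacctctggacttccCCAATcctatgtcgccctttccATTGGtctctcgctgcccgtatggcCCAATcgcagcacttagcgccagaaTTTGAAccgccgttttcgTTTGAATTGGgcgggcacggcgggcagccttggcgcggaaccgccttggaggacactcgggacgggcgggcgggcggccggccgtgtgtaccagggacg

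Growth signals were mixed. Of 14 genes of the insulin-like growth factor and growth hormone axis, 4 were called lower, against 18.8% of all genes, and 1 higher, with a median of -0.07 (5 and 1 with the span trend removed). Igf1, the local growth factor made by fibroblasts and macrophages, was at 61.6 to 83.1 CPM (median 65.9) at day 7 and 26.8 to 49.7 CPM (median 41.9) at day 27. The days did not overlap, and the log2 fold change was -0.79 ± 0.11 SE (adjusted p by edgeR, 9.17e-05). Igf2r, the receptor that clears IGF2, fell by 0.39 (edgeR adjusted p = 2.35e-05), and the binding protein Igfbp7 rose, at 0.18 ± 0.04 SE (adjusted p by edgeR, 0.00301). Igf2 itself, a growth factor that is high in the fetus, was low on both days, at 6.86 to 11.0 CPM (median 8.76) at day 7 and 6.82 to 10.9 CPM (median 9.38) at day 27, and was not called (edgeR adjusted p = 0.588).

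Imprinted growth genes, read from 1 parental copy, gave 4 lower and 1 higher of 8 tested, and 3 and 1 with the span trend removed. Over all genes 18.8% were called lower and 18.6% higher. Peg3 was at 81.4 to 96.3 CPM (median 89.7) at day 7 and 54.2 to 64.2 CPM (median 61.7) at day 27, without overlap and with a log2 fold change of -0.55 ± 0.048 SE (adjusted p by edgeR, 5.52e-07). Plagl1 fell by 0.44 and Grb10 by 0.30. Dlk1, a Notch-like ligand of growing tissue, rose, at 6.07 to 27.7 CPM (median 8.41) at day 7 and 7.58 to 45.2 CPM (median 23.9) at day 27, with a log2 fold change of 1.202 ± 0.39 SE (adjusted p by edgeR, 0.0246). Its ranges overlap, the highest day 7 value being that of library 2, and it was not called with library 7 of day 27 left out, with the close pairs summed or with the span trend removed.

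In the list of alveolar fibroblast and morphogen genes, 6 of 15 were called lower and 1 higher (median -0.12), and 5 and 2 with the span trend removed. Shares over all genes were 18.8% lower and 18.6% higher. Beside Wnt5a, the basement membrane ligand Npnt was at 264.4 to 299 CPM (median 281.6) at day 7 and 169 to 226 CPM (median 211) at day 27, with a log2 fold change of -0.46 ± 0.05 SE (adjusted p by edgeR, 8.47e-06), and the hedgehog inhibitor Hhip fell by 0.74 (edgeR adjusted p = 0.00345). The methyltransferase Inmt moved the other way, from 26.7 to 73.4 CPM (median 47.4) at day 7 up to 75.0 to 144 CPM (median 108) at day 27. The ranges just missed each other, with a log2 fold change of 1.17 ± 0.19 SE (adjusted p by edgeR, 0.000532).

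Red cell genes had the lowest median of the lists apart from skeletal muscle, at -0.80, with 6 of 7 called lower and 0 higher. Slc4a1 (ENSRNOG00000020951), the anion exchanger of the red cell membrane, was at 9.57 to 17.6 CPM (median 11.4) at day 7 and 2.22 to 4.46 CPM (median 2.88) at day 27. The highest day 27 value was less than the lowest of day 7, and the means were 11.6 ± 2.28 CPM at day 7 (SD, n = 7) and 3.35 ± 0.951 CPM at day 27 (SD, n = 7). The log2 fold change was -1.90 ± 0.17 SE (adjusted p by edgeR, 6.3e-07). Alas2, which starts haem synthesis in red cell precursors, was at 28.8 to 47.1 CPM (median 35.1) at day 7 and 15.6 to 21.6 CPM (median 18.1) at day 27, with a log2 fold change of -1.04 ± 0.099 SE (adjusted p by edgeR, 1.39e-06). The beta globin Hbb, an RNA that young red cells still carry, was at 1418 to 1998 CPM (median 1605) at day 7 and 796 to 1169 CPM (median 970.3) at day 27, likewise without overlap, with a log2 fold change of -0.80 ± 0.078 SE (adjusted p by edgeR, 2.12e-06). Hemgn, a nuclear protein of red cell precursors outside the list, had a log2 fold change of -1.62 ± 0.27 SE (adjusted p by edgeR, 0.000351). Ahsp, which binds free alpha globin, was the member not called (-0.34). Medians at day 1 were above those of day 7, with Slc4a1 at 9.40 to 19.3 CPM (median 17.8) and Hbb at 1520.5 to 2368 CPM (median 1942). The counts were 6 lower with the span trend removed (median -0.87) and 2 with the ribosomal protein covariate. How much blood each lung piece held was not measured.

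Cholesterol and fatty acid synthesis was lower by smaller amounts. Of 23 genes 16 were called lower, 0 higher and 0 without overlap, with a median of -0.30. Acaca, which makes the malonyl-CoA for fatty acids, was at 63.2 to 79.5 CPM (median 73.1) at day 7 and 32.5 to 63.2 CPM (median 51.8) at day 27, the highest day 27 library just reaching the lowest of day 7, with a log2 fold change of -0.53 ± 0.10 SE (adjusted p by edgeR, 0.00104). Sc5d was at 63.5 to 88.3 CPM (median 80.6) at day 7 and 53.3 to 66.8 CPM (median 62.5) at day 27, with a log2 fold change of -0.34 ± 0.067 SE (adjusted p by edgeR, 0.00118). The lowest member was Hmgcs1, the entry to the sterol branch, at -0.81 ± 0.15 SE (adjusted p by edgeR, 0.0013). The regulators Srebf1 (-0.06) and Srebf2 (-0.10) were not called. The summed level of the list had medians of 2045 CPM at day 1, 2450.5 CPM at day 7 and 1915 CPM at day 27. Day 7 thus held the highest median, and Acaca at day 1 was at 40.4 to 64.4 CPM (median 55.1). The count lower was 17 with the span trend removed and 0 with the ribosomal protein covariate, where the median was -0.10.

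Smooth muscle genes were called lower in 6 of 10, beside 18.8% of all genes, with 0 higher and a median of -0.37. The smooth muscle myosin Myh11 was at 477 to 569.6 CPM (median 532) at day 7 and 218 to 465 CPM (median 402) at day 27. The days did not overlap, although the day 27 values spread widely, and the log2 fold change was -0.53 ± 0.15 SE (adjusted p by edgeR, 0.0113). Smtn fell by 0.40 (edgeR adjusted p = 6.96e-05), and Myocd, the co-activator that turns on contractile genes, had a log2 fold change of -0.93 ± 0.20 SE (adjusted p by edgeR, 0.00202). The actin Acta2 (-0.32) and transgelin Tagln (-0.17) were not called. In the fit without the span trend 9 of 10 were called lower, and with the ribosomal protein covariate 0 were and the median was 0.03.

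**Figure D3:**
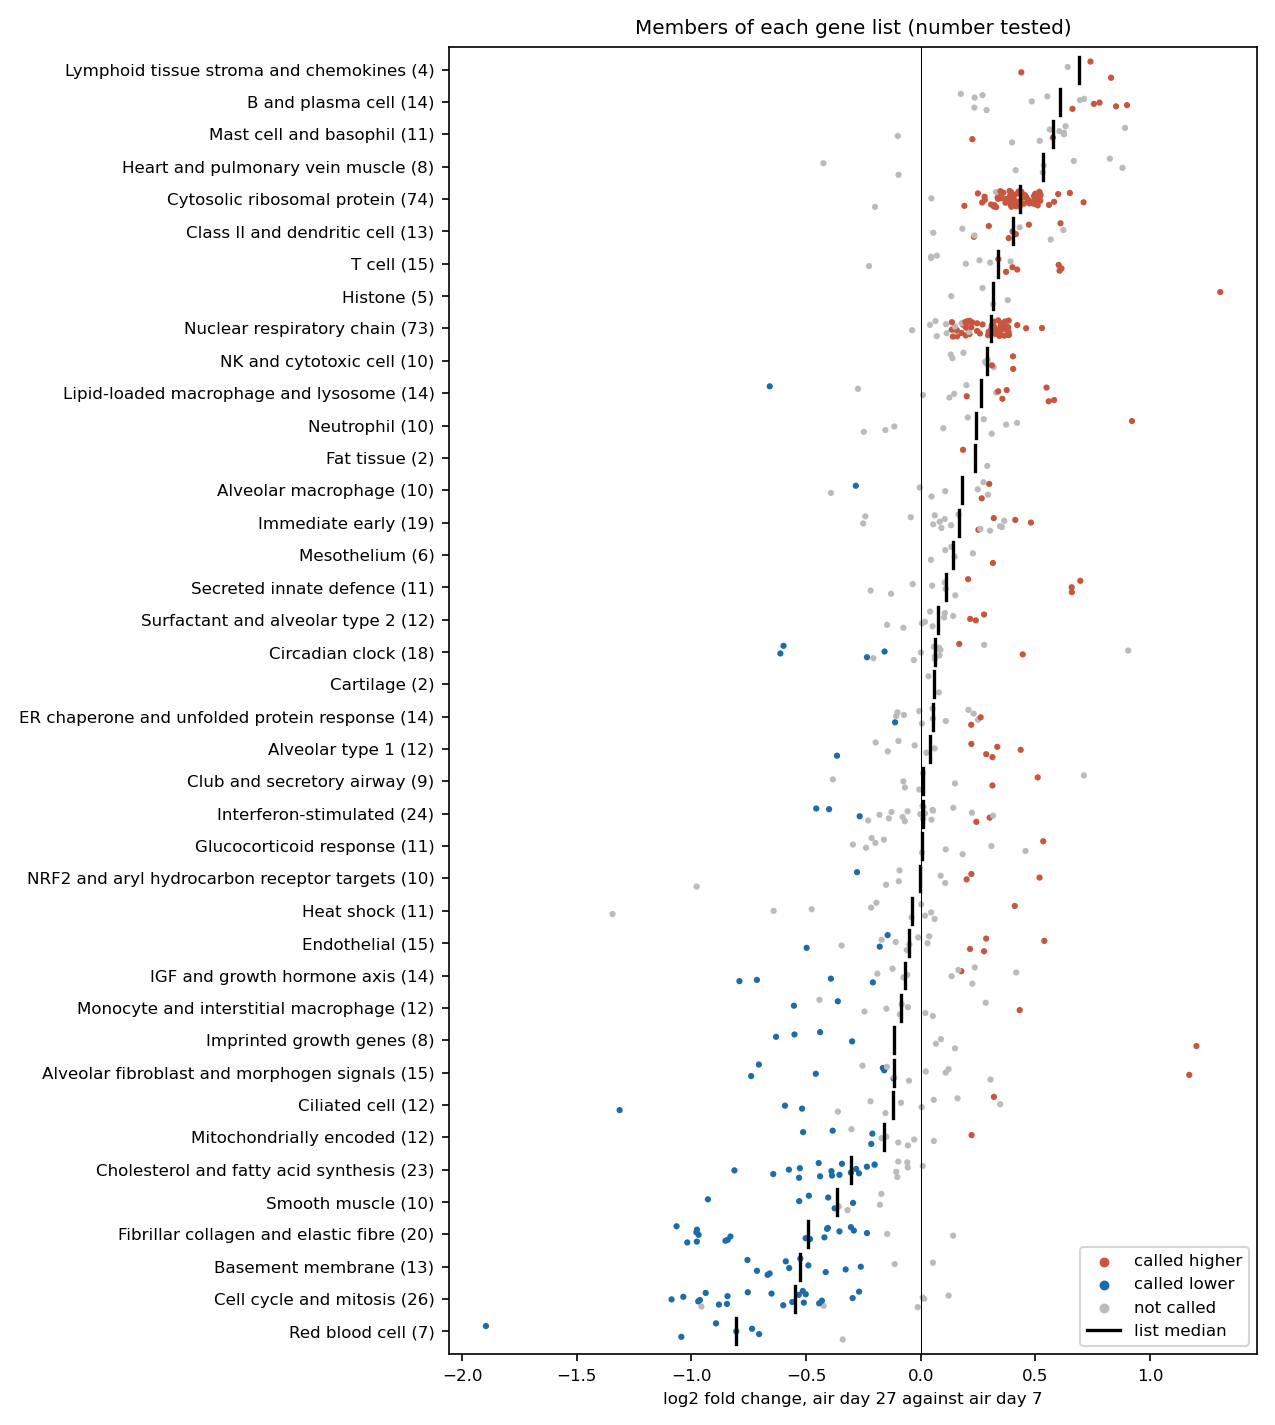
Log2 fold change of air day 27 against air day 7 (x axis) for the tested members of each list (y axis, number tested in parentheses), red called higher, blue called lower, grey not called, with black bars at list medians. The skeletal muscle list, set by 1 library, is left out. Red cell, cell cycle, basement membrane and fibrillar collagen medians lie at -0.80 to -0.49, and lymphoid stroma and B cell medians at 0.69 and 0.61.

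Lists of epithelial and endothelial identity genes had medians near 0. Their counts of calls stand beside 18.6% of all genes higher and 18.8% lower. Of 12 surfactant and alveolar type 2 genes, 3 were called higher and 0 lower, with a median of 0.08. Sftpc rose by 0.28 on the log2 scale (edgeR adjusted p = 0.00248), the aspartic protease Napsa by 0.24 and the transcription factor Nkx2-1 by 0.22. None of the 12 was called once the span trend was removed. Among 12 alveolar type 1 genes 5 were called higher and 1 lower (median 0.04), and 4 and 1 with the span trend removed. Cyp4b1, a lung cytochrome P450, was at 343 to 394 CPM (median 373) at day 7 and 429 to 571 CPM (median 494) at day 27, without overlap and with a log2 fold change of 0.44 ± 0.058 SE (adjusted p by edgeR, 5.8e-05). Pdpn, the podoplanin of the thin alveolar cell, was at 554 to 678 CPM (median 641) at day 7 and 683 to 779.9 CPM (median 745) at day 27, with a log2 fold change of 0.22 ± 0.046 SE (adjusted p by edgeR, 0.00169). Hopx rose by 0.33.

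Of 15 endothelial genes 4 were called higher and 3 lower, also with the span trend removed. Cd93, a surface lectin of endothelial cells, was at 597 to 713 CPM (median 690.0) at day 7 and 361 to 569 CPM (median 453) at day 27, with a log2 fold change of -0.50 ± 0.079 SE (adjusted p by edgeR, 0.00026). Plvap, part of the diaphragm over endothelial pores, rose by 0.29 and the peptide Apln by 0.28. Esm1 (endocan), an endothelial proteoglycan outside the list, was at 36.6 to 77.8 CPM (median 60.1) at day 7 and 81.5 to 158 CPM (median 107) at day 27, with all day 27 libraries higher and a log2 fold change of 0.92 ± 0.18 SE (adjusted p by edgeR, 0.00181).

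In the airway, 2 of 9 club cell genes were called higher, and 2 with the span trend removed. Shares over all genes were 18.6% higher and 18.8% lower. Scgb1a1, the main secretory protein of club cells, was at 5257 to 7127 CPM (median 6212) at day 7 and 7678 to 11322 CPM (median 8688) at day 27, without overlap and with a log2 fold change of 0.51 ± 0.075 SE (adjusted p by edgeR, 0.000131). Cyp2b1 rose by 0.31, a call lost with the span trend removed and without library 2, 5, 7 or 8 of day 27 or library 6 of day 7. Of 12 ciliated cell genes 1 was called higher, the tubulin-binding protein Tppp3 (0.32 ± 0.064 SE, adjusted p by edgeR 0.00139), and 3 lower, against 0 and 1 with the span trend removed. The axonemal motor Dnah5 was at 6.43 to 21.2 CPM (median 13.5) at day 7 and 1.62 to 12.2 CPM (median 3.51) at day 27, and Dnah9 at 28.1 to 45.2 CPM (median 37.6) at day 7 and 18.1 to 38.3 CPM (median 26.3) at day 27. Both overlap between the days, with log2 fold changes of -1.31 ± 0.35 SE (adjusted p by edgeR, 0.00867) and -0.52 ± 0.13 SE (adjusted p by edgeR, 0.00674). Dynein heavy chain genes have very long spans. Of 7 measured, a family chosen after its values were seen, 5 were called lower with a median of -0.52, and 4 with the span trend removed, where the median was -0.27. With the ribosomal protein covariate 0 were called and the median was 0.07.

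Several lymphocyte genes were higher at day 27. Of 14 B and plasma cell genes 5 were called higher and 0 lower, with a median of 0.61 and all 14 above 0. This stands beside 18.6% of all genes called higher and 18.8% lower. Cd79a and Cd79b, the signalling pair of the B cell receptor, were both called. Cd79a was at 16.6 to 26.3 CPM (median 19.9) at day 7 and 22.2 to 58.9 CPM (median 31.0) at day 27, with a log2 fold change of 0.85 ± 0.20 SE (adjusted p by edgeR, 0.0043). Cd79b was at 16.8 to 23.7 CPM (median 21.6) at day 7 and 23.2 to 65.6 CPM (median 33.9) at day 27, with a log2 fold change of 0.90 ± 0.22 SE (adjusted p by edgeR, 0.00635). In both, the day 27 libraries spread widely and the lowest of them lay within the range of day 7. Fcrla, a B cell protein related to Fc receptors, was at 12.3 to 19.4 CPM (median 17.6) at day 7 and 19.7 to 42.2 CPM (median 27.3) at day 27, without overlap and with a log2 fold change of 0.78 ± 0.16 SE (adjusted p by edgeR, 0.00212). The antibody light chain Igkc, a marker of plasma cells, was at 169 to 786 CPM (median 286.8) at day 7 and 231 to 885 CPM (median 609.6) at day 27 and was not called (edgeR adjusted p = 0.106). The 2 ranges overlap over most of their width. With the span trend removed, 6 of 12 B cell genes with a span were called higher (median 0.59). With the ribosomal protein covariate 0 were called and the median was -0.25.

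T cell genes gave 7 of 15 called higher and 0 lower, with a median of 0.34, beside 18.6% of all genes higher and 18.8% lower. Cd2, an adhesion molecule of T cells, was at 7.76 to 10.1 CPM (median 8.66) at day 7 and 10.3 to 16.9 CPM (median 13.3) at day 27, without overlap and with a log2 fold change of 0.61 ± 0.11 SE (adjusted p by edgeR, 0.000697). The receptor subunit Cd3e was at 8.61 to 14.9 CPM (median 11.0) at day 7 and 12.0 to 21.96 CPM (median 17.7) at day 27, with a log2 fold change of 0.61 ± 0.12 SE (adjusted p by edgeR, 0.00147), and Cd5 rose by 0.60. Cd4 was at a log2 fold change of -0.23 and Cd8a at 0.20, neither of them called. Counts fell to 4 with the close pairs summed, without library 3 of day 27 and with the span trend removed. Of 4 genes of lymphoid tissue stroma and chemokines 3 were called higher, and Cxcl13 was not (0.64). Ltb, the lymphotoxin that organises follicles, was at 11.6 to 20.8 CPM (median 13.6) at day 7 and 18.2 to 31.1 CPM (median 24.2) at day 27, with a log2 fold change of 0.74 ± 0.13 SE (adjusted p by edgeR, 0.00047). The chemokine Ccl21 rose by 0.44 and Ccl19 by 0.83, and neither was called with the close pairs summed or with the span trend removed. Ltb was called in both.

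Class II and dendritic cell genes were called higher in 7 of 13, beside 18.6% of all genes, with 0 lower and a median of 0.40. RT1-Db1, a rat class II beta chain, was at 219 to 299 CPM (median 235) at day 7 and 299 to 379 CPM (median 340.1) at day 27. The lowest day 27 library stood at the highest of day 7, without overlap, and the log2 fold change was 0.47 ± 0.073 SE (adjusted p by edgeR, 0.000201). The invariant chain Cd74 was at 1199 to 1796 CPM (median 1313) at day 7 and 1497 to 1966 CPM (median 1835) at day 27, with a log2 fold change of 0.38 ± 0.079 SE (adjusted p by edgeR, 0.00154). Xcr1, a receptor of the dendritic cells that prime killer T cells, had a log2 fold change of 0.61 ± 0.14 SE (adjusted p by edgeR, 0.00265). The count was 5 with the span trend removed (median 0.30) and 0 with the ribosomal protein covariate.

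Macrophage genes were mixed, beside 18.6% of all genes called higher and 18.8% lower. In the list of lipid-loaded macrophage and lysosome genes 7 of 14 were called higher and 1 lower (median 0.26), and 5 and 1 with the span trend removed. Apoe, a lipid carrier, was at 226 to 343 CPM (median 268.8) at day 7 and 350.4 to 529 CPM (median 412) at day 27, without overlap and with a log2 fold change of 0.58 ± 0.094 SE (adjusted p by edgeR, 0.000333). Lysozyme (Lyz2), also made by type 2 cells in rodents, was at 11721 to 13869 CPM (median 12185) at day 7 and 15836 to 21098 CPM (median 18945) at day 27, with a log2 fold change of 0.55 ± 0.066 SE (adjusted p by edgeR, 2.44e-05). Spp1 (osteopontin) was the 1 lower, at -0.66 ± 0.25 SE (adjusted p by edgeR, 0.0495), and was not called with the close pairs summed or without library 3, 5 or 7 of day 7 or library 3, 4, 6 or 7 of day 27. Of 10 alveolar macrophage genes 2 were called higher, Cd9 and the transcription factor Pparg, and 1 lower, the scavenger receptor Olr1, with 2 and 1 in the fit without the span trend. Pparg was not called with the close pairs summed. Of 12 monocyte and interstitial macrophage genes 1 was called higher and 2 lower, against 0 and 2 with the span trend removed. Cd14 rose by 0.43, while Cx3cr1 had a log2 fold change of -0.55 ± 0.13 SE (adjusted p by edgeR, 0.00375).

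The counts of the next lists stand beside 18.6% of all genes called higher and 18.8% lower. Of 10 natural killer and cytotoxic genes 3 were called higher and 0 lower, namely Ccl5, Nkg7 and Gzma, at log2 fold changes of 0.31 to 0.40. With the span trend removed 0 were. Nkg7 and Gzma were also not called with the close pairs summed, without library 1, 5, 7 or 8 of day 27, or without any 1 library of day 7 other than library 7. Of 11 mast cell and basophil genes 2 were called, Hdc (0.58 ± 0.15 SE, adjusted p by edgeR 0.0069) and Gata2 (0.23 ± 0.083 SE, adjusted p by edgeR 0.0397), and the list median was 0.58, with the mast cell proteases overlapping widely between days. Gata2 was not called with the close pairs summed, with the span trend removed, without library 2, 4, 7 or 8 of day 27, or without any 1 library of day 7 other than library 8, and 1 of 10 members with a span was called in the span fit. Of 10 neutrophil genes only Retnlg was called, at 0.92 ± 0.18 SE (adjusted p by edgeR, 0.00144), and 1 was with the span trend removed. Secreted innate defence gave 4 of 11 higher, and 2 higher and 1 lower with the span trend removed. Among the 4 were the lectin Chi3l1 at 0.66 ± 0.13 SE (adjusted p by edgeR, 0.00147), the protease inhibitor Slpi at 0.70 ± 0.17 SE (adjusted p by edgeR, 0.00635) and the iron-binding protein Lcn2 at 0.66 ± 0.22 SE (adjusted p by edgeR, 0.0285). Lcn2 was not called with the close pairs summed, without library 1, 2, 4 or 7 of day 7 or library 8 of day 27, or with the span trend removed.

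Cytosolic ribosomal protein genes, which code for the protein part of the ribosome, rose nearly throughout. Of 74 tested, 71 were called higher and 0 lower, 45 without overlap, with a median of 0.43. Rps25 was at 140.2 to 181 CPM (median 158) at day 7 and 205 to 281.1 CPM (median 239) at day 27, with a log2 fold change of 0.60 ± 0.065 SE (adjusted p by edgeR, 7.17e-06). Rpl23a was at 319 to 357 CPM (median 329) at day 7 and 401 to 534 CPM (median 462) at day 27, and its log2 fold change was 0.50 ± 0.052 SE (adjusted p by edgeR, 5.47e-06). The 3 members not called were Rpl10l, Rpl7l1 and Rps4y2. Many ribosomal protein genes have near-identical copies elsewhere in the genome, so the count of a single one is uncertain. After removal of the span trend 58 of 72 were called higher, with a median of 0.24.

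Nuclear genes of the respiratory chain followed, with 62 of 73 called higher, 0 lower and a median of 0.31. Ndufa6, a subunit of complex I, was at 37.6 to 46.0 CPM (median 38.6) at day 7 and 47.1 to 60.4 CPM (median 55.6) at day 27, without overlap, with a log2 fold change of 0.46 ± 0.06 SE (adjusted p by edgeR, 4.42e-05). Cox5b, of complex IV, rose by 0.37. Only 56 of the 73 had a span, under 80%, so the span check is void for that list. The 12 messenger RNAs that mitochondria encode themselves gave 4 lower and 1 higher, with a median of -0.16. All genes gave 18.8% lower and 18.6% higher. Mt-nd4l had a log2 fold change of -0.51 ± 0.14 SE (adjusted p by edgeR, 0.00969) and Mt-nd3 one of 0.22 ± 0.049 SE (adjusted p by edgeR, 0.00242). Their count lower was 1 without library 2 of day 7 and with the close pairs summed.

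Clock genes, whose RNA swings over the day, gave 2 higher and 4 lower of 18, with a median of 0.06, and 1 and 2 of 17 with the span trend removed. Among all genes 18.6% were called higher and 18.8% lower. The activator Arntl was at 50.0 to 67.9 CPM (median 58.9) at day 7 and 49.2 to 72.4 CPM (median 54.9) at day 27 and was not called (edgeR adjusted p = 0.797). Per2 was at 11.1 to 21.7 CPM (median 13.4) at day 7 and 8.81 to 25.99 CPM (median 13.1) at day 27, not called either. Dbp, an output gene of the clock, was at 4.73 to 8.43 CPM (median 6.09) at day 7 and 7.03 to 10.3 CPM (median 8.29) at day 27, with a log2 fold change of 0.44 ± 0.11 SE (adjusted p by edgeR, 0.00548), and at 7.22 to 59.9 CPM (median 22.3) at day 1. The Dbp call was lost with the span trend removed and in the fit of all 48 libraries. Clock fell by 0.23. The time of day of sampling is not in the labels. Of 24 interferon-stimulated genes 2 were called higher and 3 lower (median 0.01), against 0 and 1 with the close pairs summed and 0 and 4 of 23 with the span trend removed. The 2 higher were 0 or 1 without library 1, 2, 3, 4 or 6 of day 7 or library 7 or 8 of day 27. Of the 3 lower, the antiviral protein Rsad2 was at -0.46 ± 0.11 SE (adjusted p by edgeR, 0.00463). Irf7 was at 69.4 to 105 CPM (median 85.1) at day 7 and 53.1 to 139 CPM (median 79.0) at day 27 and was not called (edgeR adjusted p = 0.944).

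The stress-linked lists came next, beside 18.6% of all genes called higher and 18.8% lower. Of 11 glucocorticoid response genes 1 was called higher, also with the span trend removed, which was Sult1a1 (0.53 ± 0.13 SE, adjusted p by edgeR 0.00557), and Fkbp5 was not called (0.11, edgeR adjusted p = 0.61). Of 19 immediate early genes 4 were called higher, among them Jund, Btg2 and Myc, against 1 with the close pairs summed and 0 with the span trend removed. Of 14 ER chaperone genes 2 were called higher and 1 lower, and 0 and 5 with the span trend removed. Among 10 NRF2 and aryl hydrocarbon receptor targets 3 were called higher and 1 lower, near the 37.4% of all genes, and 2 and 1 with the span trend removed, with the conjugating enzyme Gstp1 at 0.52 ± 0.075 SE (adjusted p by edgeR, 0.00012), the quinone reductase Nqo1 at 0.22 ± 0.055 SE (adjusted p by edgeR, 0.00522) and the receptor target Tiparp at -0.28 ± 0.073 SE (adjusted p by edgeR, 0.00719). Of 11 heat shock genes Hspb1 alone was called (0.41 ± 0.13 SE, adjusted p by edgeR 0.0244), and it was not with the close pairs summed, with the span trend removed or without library 7 of day 27.

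Some of the largest differences, in skeletal muscle genes, rested on a single library. The fast muscle myosin Myh1 was at 0.625 to 210.2 CPM (median 1.24) at day 7 and 0.632 to 1.47 CPM (median 0.909) at day 27, and the muscle actin Acta1 at 0.816 to 140.0 CPM (median 1.2003) at day 7 and 0.249 to 1.9998 CPM (median 0.999) at day 27. Library 2 alone held the high day 7 values, and without it neither gene was called. Their log2 fold changes of -4.90 and -4.24 describe that library. Heart muscle genes, which in rodents are also made by the muscle sleeve of the pulmonary veins, gave 0 calls of 8. Their summed level ran from 36.4 to 262.5 CPM at day 7 and from 47.0 to 411 CPM at day 27. The counts of Myh9 (0 to 131 CPM at day 7, 57.1 to 444 at day 27) and Hsp90aa1 (40.2 to 173 CPM at day 7, 0 to 129.8 at day 27) covered wide ranges within a day. Myh9 was called higher, at a log2 fold change of 2.35 ± 0.80 SE (adjusted p by edgeR, 0.0331), and Hsp90aa1 was not called. The Myh9 call was lost with DESeq2 and in several of the fits that left 1 library out. The fat and cartilage lists had 2 tested members each, and 1 of these 4, the lipase Lipe, was called higher (0.18 ± 0.061 SE, adjusted p by edgeR 0.0236). Among the larger rises, the ion channel Best1 was at 2.50 to 5.62 CPM (median 3.64) at day 7 and 3.87 to 14.9 CPM (median 10.9) at day 27, with a log2 fold change of 1.33 ± 0.28 SE (adjusted p by edgeR, 0.00204), and the chemokine Cxcl6 at 0.236 to 1.59 CPM (median 0.921) at day 7 and 0.748 to 5.95 CPM (median 1.75) at day 27, with one of 1.31 ± 0.44 SE (adjusted p by edgeR, 0.0278). The latter was not called without library 2 of day 27 or library 7 of day 7, or with the span trend removed.

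The exposed rats of the same 2 days are separate animals and show which of these differences are also seen with other lungs. In the 4-group fit of 14631 genes, exposed day 27 against exposed day 7 gave 893 genes higher (6.1%) and 846 lower (5.78%). Called in both with the same direction were 1268 genes, which is 23.8% of the air calls and 73.9% of the 1716 exposed calls that were also tested in the air fit, and 0 were called in opposite directions. Of the 5317 air calls 91.6% had the same sign in exposed lungs, against 75.7% of all genes. Air and exposed libraries of a day share a table, so a difference between tables would appear in both.

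Matrix, division and red cell genes were lower in exposed lungs as well. Fibrillar collagen and elastic fibre genes were called lower in 18 of 20 with a median of -0.53, cell cycle genes in 17 of 26 with -0.47, basement membrane genes in 10 of 13 with -0.43 and red cell genes in 6 of 7 with -1.01. Col3a1 had a log2 fold change of -0.83 (adjusted p by edgeR, 7.89e-12) in exposed lungs and Slc4a1 one of -1.98 (adjusted p by edgeR, 8.15e-07). Lymphocyte lists had smaller medians there. B cell genes had 1 called higher of 14 and a median of 0.08, T cell genes 1 of 15 and 0.07, and lymphoid stroma genes 0 of 4 and 0.06. The B cell gene called there was Igkc, at 1.14 (adjusted p by edgeR, 0.00992). Igkc was also above 0 in air, at 0.69, but not called there. Its rise was larger in exposed lungs than in air, unlike the list median. Cd79a was at 0.13 (adjusted p by edgeR, 0.658) and Ltb at 0.21 (adjusted p by edgeR, 0.226). Cholesterol synthesis had 1 of 23 called lower and a median of -0.12. Ribosomal protein genes had 47 of 74 called higher and a median of 0.22, and the span gradient was shallower, with medians from 0.07 for the shortest to -0.09 for the longest genes.

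The difference between the air and the exposed change was itself tested, and edgeR called 0 genes, with a smallest adjusted p of 0.0619 and 2197 genes (15%) at an unadjusted p under 0.05. DESeq2 called 147 and the fit of all 48 libraries 3. The smallest p belonged to Pink1, Rrbp1, Rpl36, Eif5b and Chodl. Chodl, a membrane lectin, had a log2 fold change of -0.75 ± 0.17 SE (adjusted p by edgeR, 0.00317) in air and of 0.41 (adjusted p by edgeR, 0.0894) in exposed lungs. Rrbp1, a ribosome receptor of the endoplasmic reticulum, was at -0.27 ± 0.04 SE (adjusted p by edgeR, 0.000128) and -0.01 (adjusted p by edgeR, 0.918). The air and exposed changes in B cell, T cell and cholesterol genes are therefore not shown to differ by edgeR. At an unadjusted edgeR p under 0.05 were 8 of 14 B cell, 3 of 15 T cell and 9 of 23 cholesterol genes. Of the ribosomal protein genes 50 of 74 were, against 15% of all genes.

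**Figure D4:**
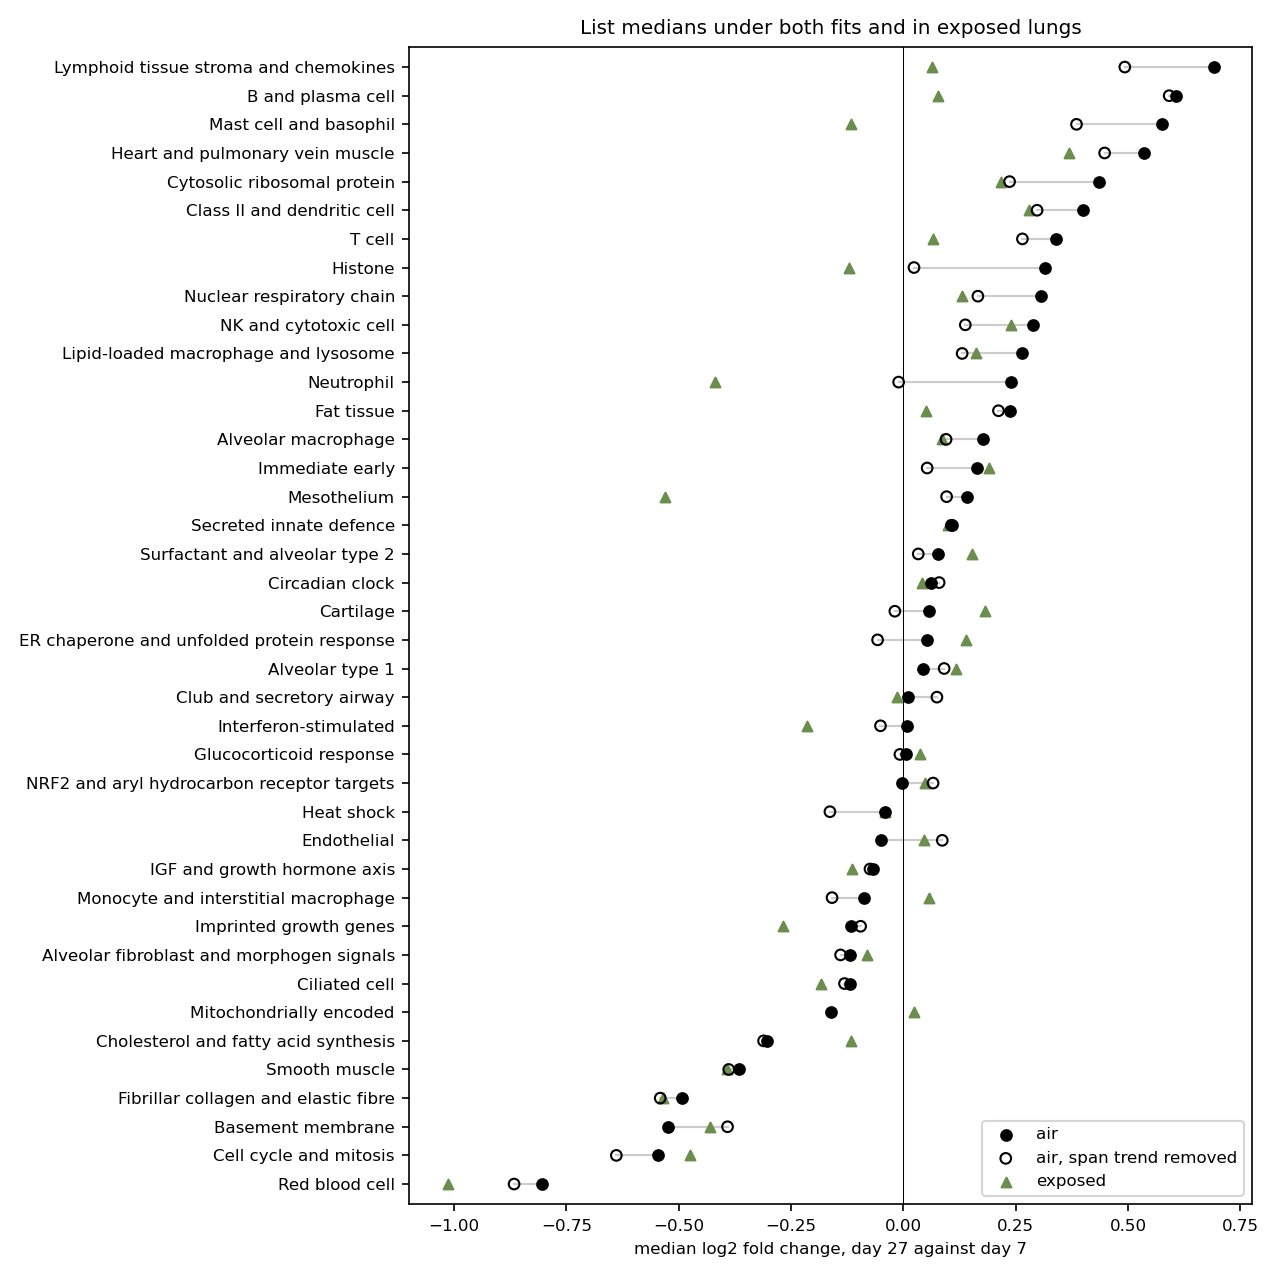
Median log2 fold change of day 27 against day 7 (x axis) for each list (y axis) in air lungs (filled circles), in air lungs with the genomic span trend removed (open circles) and in exposed lungs (triangles). Matrix, cell cycle and red cell medians lie at or below -0.39 in all 3, the B cell median is 0.61, 0.59 and 0.08, and the ribosomal protein median 0.43, 0.24 and 0.22.

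**Figure D5:**
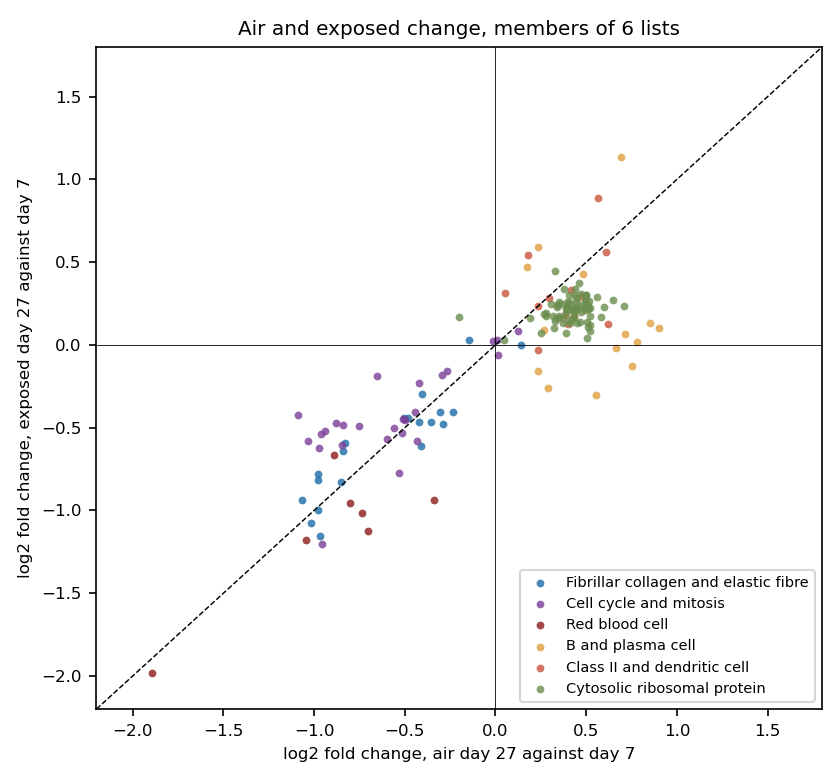
Each point is a gene of 1 of 6 lists, with its log2 fold change of day 27 against day 7 in air lungs on the x axis and in exposed lungs on the y axis, and the dashed line marks equal change. Collagen, cell cycle and red cell genes lie mostly along the line at the lower left, ribosomal protein genes below the line (medians 0.43 and 0.22), and most B cell genes further to the right than up.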

How the data were processed

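The authors deposited expected counts, which are estimated counts for each gene, not normalized, in 1 table per day with 32285 identifiers. The submitters' processing notes name Salmon 1.10.1 and STAR 2.6.1d, trimming with Trim Galore 0.6.7 and cutadapt 3.4, bcl2fastq 2.19 and build Rnor_6.0, and per the labels' protocols the kit kept strand. Settings are not given in the sources used here. On average 5.53% of values per air library of days 7 and 27 were not whole, and all were rounded.

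Tables were joined by identifier, and groups came from the labels. EdgeR 4.0.16 (R 4.3.3) with TMM factors, filterByExpr and the robust quasi-likelihood F test compared the 16 air libraries, with Benjamini-Hochberg adjustment at 0.05. SE is the log2 fold change divided by the square root of F. CPM used TMM factors over all 48 libraries. Where identifiers shared a name, the most abundant was used. The exposed change and the difference of changes came from 1 fit of 32 libraries. The alternatives were RLE size factors, no filter, a filter at a mean of 1 CPM, limma-voom (limma 3.58.1), DESeq2 1.42.0, all 48 libraries, close pairs summed, the log2 total count as a covariate and each library left out. The ribosomal protein covariate and removal of the span trend (a loess of span 0.5 of log2 CPM deviation on log10 span, as an offset) were chosen after seeing the data. The edgeR fit and the removal of the span trend were checked on simulated counts.

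The lungs compared and the 41 gene lists (37 by name, 4 by name pattern) were chosen with earlier results of these data known. Named genes were, among called genes with a mean of at least 1 CPM and at least 7 of 8 day 27 libraries on 1 side of the day 7 mean, the 12 largest rises, the 12 largest falls and the 5 smallest p in each direction. Added to these were up to 3 called members per list, 15 chosen genes and the 5 smallest p of the difference of changes. Other list members named in the text were chosen after their values were seen. Some list members are not reported here.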

Additional observations from a re-analysis of the deposited data

Results flagged for a closer look

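In each group of 8, a gene was singled out when the gap between its highest or lowest library and the next one exceeded Dixon's 95% critical share of the whole range. Chance gives such a gap in about 1 of 20 groups of normally distributed values, and whether CPM are so distributed was not tested. Checked over 139 named genes on 2 days, 29 sets met the rule (10.4%), and in 27 of them 1 library stood high. The 29 sets share libraries and are not separate events. All values are CPM.

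Library 8 of day 7 stood apart in 10 genes, with Atf4 at 302, Cd9 at 635, Gata2 at 163, Gstp1 at 152, Herpud1 at 109, Hspb1 at 287.03, Myc at 30.7, Ndufa6 at 46, Rps29 at 324 and Sult1a1 at 156. Library 2 of day 7 stood apart in 5 genes, with Acta1 at 140, Casq1 at 21.8, Dlk1 at 27.7, Myh1 at 210 and Per2 at 21.7. Library 6 of day 7 stood apart in 3 genes, with Cyp2b1 at 583 (the lowest), Grb10 at 115 and Wnt5a at 97.8. Library 1 of day 7 stood apart in Xcr1 at 2.9. Library 3 of day 7 stood apart in Cbx7 at 65.7. Library 5 of day 7 stood apart in Igkc at 786. Library 7 of day 7 stood apart in Fbn1 at 458 (the lowest). Library 2 of day 27 stood apart in 4 genes, with Cxcl6 at 5.95, Lcn2 at 281.8, Myh6 at 151 and Tnnt2 at 31.7. Library 7 of day 27 stood apart in 2 genes, with Ccl5 at 111 and Myh1 at 1.47. Library 8 of day 27 stood apart in Hemgn at 1.85. The causes were not tested.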

How the results depend on the processing

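Main counts of calls stayed within 1.5 times under RLE size factors, no filter, a mean of at least 1 CPM, DESeq2, limma-voom, all 48 libraries and the log2 total count. With the close pairs summed, 63 genes were at least 1.5-fold higher, against 100. The ribosomal protein covariate gave 14 genes higher and 55 lower, 7 and 31 of them by at least 1.5-fold, and the covariate does not overlap between the days. With the genomic span trend removed, 60 and 303 genes changed by at least 1.5-fold, in a smaller set of 12272 genes. Leaving out 1 library gave 2159 to 2891 genes higher, 2304 to 2986 lower, 77 to 138 at least 1.5-fold higher and 365 to 637 at least 1.5-fold lower. For the difference between the air and the exposed change, DESeq2 called 147 genes and the fit of all 48 libraries 3, against 0. The cause was not tested. At these totals, genes near 1 CPM rest on few counts per library.

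Signs reversed among named genes in 2 fits. Removing the span trend turned Atf4 to -0.013. The ribosomal protein covariate turned Btg2 to -0.0023, Cd79a to -0.13, Cd79b to -0.15, Clock to 0.036, Dnah5 to 0.069, Dnah9 to 0.014, Ifih1 to 0.16, Mt-atp8 to 0.090, Mt-nd4l to 0.068, Myc to -0.19, Myh11 to 0.13, Napsa to -0.063, Nkg7 to -0.028, Nkx2-1 to -0.0084 and Tiparp to 0.068, all as log2 fold changes. Among the 139 named genes, 27 lost their call but kept their sign with the span trend removed, 17 with the close pairs summed and 95 with the ribosomal protein covariate. The 15 genes reversed under that covariate lost their call as well. Named genes without a span were not in the span fit.

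No paired analysis was possible because no animal number is shared between the groups.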
